A study of Mus musculus with 6 samples.

Results

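The Schlafen family is a set of genes named after the German for sleeping, because forced expression of its founding member slowed the growth of T cells. Its 7 protein-coding members measured here, Slfn1, Slfn2, Slfn3, Slfn4, Slfn5, Slfn8 and Slfn9, were taken by symbol from the 57010 genes of the deposited count table, and all 7 were found and passed the filter on low counts. The cells were leukocytes sorted from mouse hearts as carrying CD45, the common surface antigen of leukocytes, and lacking CD90.2 (Thy1), which T cells carry. Every mouse carried the genotype labelled Ova DTG, in which ovalbumin is expressed in the heart, and every mouse had received OTI cells, which are CD8 T cells with a receptor for ovalbumin. The 3 libraries labelled OTI + ICI came from mice given immune checkpoint inhibitors, 200 µg of antibody against CTLA-4 and 200 µg of antibody against PD-1, and the 3 libraries labelled OTI + Isotype came from mice given isotype antibody. The promoter of the transgene, the number of mice per library, and the age and time of sampling stand in none of the sources used here.

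Schlafen proteins share a core domain that binds and can cut RNA, in particular transfer RNA, and many of their genes are induced by interferons. Mouse members fall into a short class of the core alone (Slfn1, Slfn2), an intermediate class with an added middle domain (Slfn3, Slfn4) and a long class with a further helicase-like domain (Slfn5, Slfn8, Slfn9). In the immune system they are known for Slfn2, without which T cells and monocytes leave their resting state and are lost when activated, and which shields transfer RNA from the ribonuclease angiogenin in activated T cells. Several members are expressed in monocytes and macrophages and change as these cells differentiate or meet microbial products.

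The gene models of these classes can be read from the transcripts of an older annotation than the one behind the counts (GENCODE M21). The longest coding sequence spanned 337 codons for Slfn1, 378 for Slfn2, 640 for Slfn3 and 602 for Slfn4. It spanned 884 codons for Slfn5 and 910 each for Slfn8 and Slfn9. Slfn8 and Slfn9 were identical at 92.7% of 2730 aligned coding bases and Slfn3 and Slfn4 at 91.5% of 1783, while Slfn1 and Slfn2 shared 71.3% of 1002. Of all stretches of 100 bases in the transcripts of Slfn8, 3.38% were found unchanged in another family gene, and for Slfn9 the share was 3.71%. Most of these were shared with the pseudogene Slfn10-ps (2.45% of Slfn8 and 3.04% of Slfn9), and Slfn8 and Slfn9 shared 1.17% of Slfn8 and 0.839% of Slfn9 with each other. For the other 5 members the share found in any family gene was at most 0.128%. The read length is stated in none of the sources used here, and shorter stretches are shared more. Of stretches of 50 bases, 14.6% in Slfn8, 11.2% in Slfn9, 8.15% in Slfn4 and 7.39% in Slfn3 were found in another family gene. The share was 4.27% in Slfn2 and 0.606% in Slfn1, and Slfn5 had none. Reads from such stretches can be split between these genes in counting, and the values of these members, Slfn8 and Slfn9 most, are uncertain to that extent.

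All 7 members lie on chromosome 11, and their promoters differ in 2 short sequence blocks that divide the classes. The windows below come from RefSeq promoters of build GRCm38.p6, which run from 250 bases before the start site over 300 bases in all; the counts were made on GRCm39. Each line shows the stretch around 1 match, 5′ to 3′ on the gene's own strand, and all of it lies before the start site. They are shown because the long members held the core of the interferon-stimulated response element, which is GAAA and GAAA with 2 bases of any kind between them (TTTC and TTTC on the opposite strand), which the short and intermediate members did not hold in this window. In the long members the capitals mark that match, at chr11:82951917-82951986 on the plus strand for Slfn5, chr11:83020819-83020888 on the minus strand for Slfn8 and chr11:82991836-82991905 on the minus strand for Slfn9.
Slfn5: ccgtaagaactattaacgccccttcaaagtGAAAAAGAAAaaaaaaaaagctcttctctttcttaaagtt
Slfn8: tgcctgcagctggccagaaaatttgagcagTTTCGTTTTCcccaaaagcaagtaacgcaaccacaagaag
Slfn9: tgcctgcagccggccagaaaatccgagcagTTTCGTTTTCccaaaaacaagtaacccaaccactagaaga
In the short and intermediate members the capitals mark ACTTCCTG (CAGGAAGT on the opposite strand), which holds the core bound by ETS factors such as PU.1. These windows lie on the plus strand at chr11:83116716-83116783 for Slfn1, chr11:83065027-83065094 for Slfn2, chr11:83191258-83191325 for Slfn3 and chr11:83175083-83175150 for Slfn4.
Slfn1: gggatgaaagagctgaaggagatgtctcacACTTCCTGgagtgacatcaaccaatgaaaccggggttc
Slfn2: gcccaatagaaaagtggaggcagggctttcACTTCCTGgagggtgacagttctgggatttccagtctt
Slfn3: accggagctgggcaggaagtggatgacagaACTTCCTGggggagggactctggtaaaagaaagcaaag
Slfn4: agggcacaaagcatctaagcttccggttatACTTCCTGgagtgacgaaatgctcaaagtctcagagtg

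The ETS-type block began 74 bases before the start site in Slfn1, 55 in Slfn2, 42 in Slfn3 and 73 in Slfn4, and Slfn3 held a further match on the opposite strand 60 bases before the start. It was present in 3.33% of the 32851 promoter windows of the table, and it was chosen after these promoters had been read. The interferon-type block was present in 3.44% of all windows, and it began 155, 48 and 45 bases before the start in Slfn5, Slfn8 and Slfn9. The gamma-activated site TTCNNNGAA, a block known from promoters that interferon gamma induces and present in 8.30% of all windows, was matched in none of the 7 members. A match is a run of letters, not a shown binding site, and a missing match concerns these windows only. RefSeq lists 2 overlapping windows for Slfn8 from different start sites, and the same match lies in both, 48 bases before the outer start and 136 before the inner one. The promoter windows of Slfn8 (outer start) and Slfn9 were identical at 83.4% of 295 aligned bases.

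Total counts were between 21528274 and 23713009 in libraries labelled ICI and between 24657436 and 30736316 in those labelled isotype, and the 7 members together held 16739 to 22100 counts in ICI and 27003 to 27368 counts in isotype libraries. Ptprc, which encodes CD45, stood at 1125 to 1339 CPM (counts brought to a common library total, with TMM factors) in ICI and 1028 to 1118 CPM in isotype libraries, and Thy1 had at most 2 counts in any library. No gene of the table reads out the antibody treatment, so the groups and every direction below rest on the labels. The sample titles of both groups name myocarditis, and interferon gamma response and monocyte genes were lower, and resident macrophage genes higher, in the libraries labelled ICI. Whether the labels of the groups are exchanged cannot be checked with these data, and an exchange would turn every direction. Replicate 3 of each group stood apart in sex-linked genes, with 2786 Xist counts in ICI and 1844 in isotype, against at most 12 in the other 4 libraries. Its Y-linked counts were 6 in ICI and 130 in isotype, against 3620 to 5821 in the other 4 libraries. Fits that leave out a replicate 3 library therefore also change the balance of sex. Across all 14575 genes tested, 68.9% were called at an adjusted p under 0.05 (edgeR quasi-likelihood test with Benjamini-Hochberg adjustment over all genes), 35% as higher and 33.9% as lower in ICI.

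The summed level of the family was lower in ICI libraries on TMM-scaled totals. It was 749, 877 and 703 CPM in ICI replicates 1, 2 and 3 and 1004, 1189 and 923 CPM in isotype replicates 1, 2 and 3. On this scaling the groups did not overlap, and replicate 2 was the highest library of each group. As a share of all counts, the family held 0.0787, 0.0932 and 0.0778% in ICI replicates 1, 2 and 3. In isotype replicates 1, 2 and 3 it held 0.0926, 0.110 and 0.0879%, so the unscaled groups overlapped. The sum weighs Slfn2 most, which made up 53.7 ± 2.51% of its counts in ICI and 52.8 ± 2.74% in isotype libraries. By class, the short members averaged 448 CPM in ICI and 699 CPM in isotype libraries. The intermediate members averaged 59.9 CPM in ICI and 97.8 CPM in isotype, and the long members 268 CPM in ICI and 242 CPM in isotype. Fitted as 1 row in place of the 7, the sum had a log2 fold change of -0.42 (ICI over isotype, adjusted p = 0.0108 by edgeR's quasi-likelihood test). With upper-quartile factors the sum had a log2 fold change of -0.24 and was not called (adjusted p = 0.0990), and on library totals alone it had -0.22 (adjusted p = 0.107). Of the 7 members, 3 fell (Slfn1, Slfn2, Slfn3), 1 rose (Slfn8) and 3 did not pass (Slfn4, Slfn5, Slfn9), so that 4 of 7 were called against 68.9% of all genes. The groups did not overlap for the same 4 members, against 73.8% of all genes. With replicates 1 and 2 alone, Slfn1, Slfn2 and Slfn8 were called again, Slfn3 was not (edgeR adjusted p = 0.0568) and Slfn4 was (0.00165). The median log2 fold change of the 7 was -0.62, which is the value of Slfn9, beside 0.03 over all genes tested. In bulk RNA, fewer cells of a type and less RNA per cell cannot be told apart, and this holds for every level below.

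**Figure D1:**
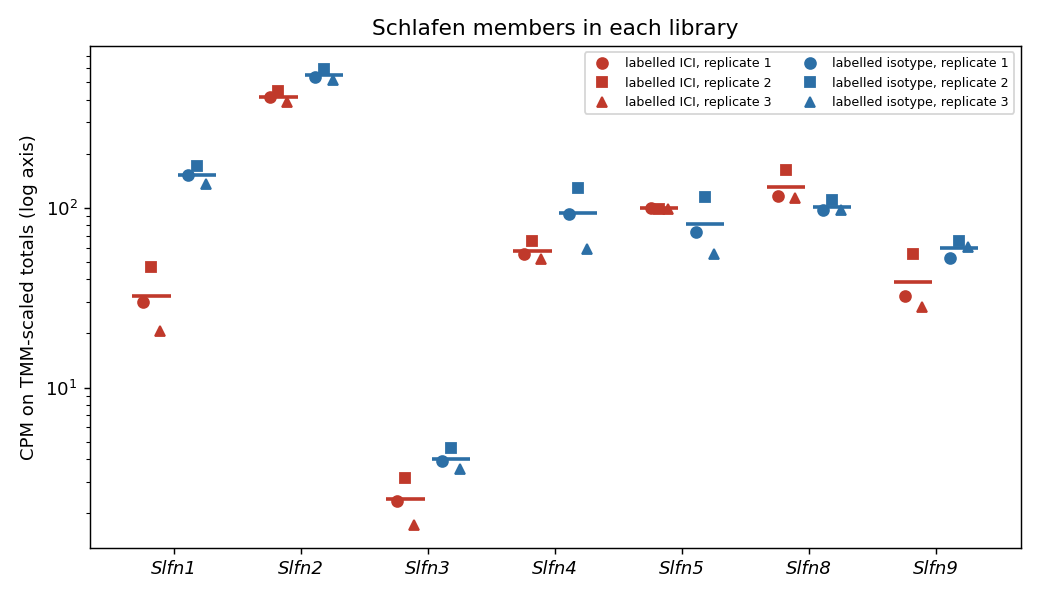
Level of each Schlafen member in each library (CPM on TMM-scaled totals, log axis). Red symbols are libraries labelled ICI and blue symbols libraries labelled isotype, with the symbol shape giving the replicate and the bar the mean of 3. Slfn1 shows the widest gap, with ICI libraries at 20.8 to 46.6 CPM and isotype libraries at 136 to 170 CPM, while the ICI values of Slfn5 lie inside its isotype range.

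Slfn1, a short member and the founder of the family, gave the largest difference of the 7. It had 713, 1175 and 494 counts in ICI replicates 1, 2 and 3 and 4138, 3869 and 3986 counts in isotype replicates 1, 2 and 3. These counts correspond to 29.7, 46.6 and 20.8 CPM in ICI and 152, 170 and 136 CPM in isotype libraries. The highest ICI library thus stayed far below the lowest isotype library. Slfn1 averaged 32.4 ± 13.1 CPM in ICI and 153 ± 17.1 CPM in isotype libraries (SD, n = 3 each), 4.71-fold lower in ICI (log2 fold change -2.24, SE 0.30, edgeR adjusted p = 0.000938). Of all genes tested, 88.2% had a smaller absolute log2 fold change. Its difference was called under each of the 18 other settings in which it was fitted on its own.

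Slfn2, the short member that keeps T cells and monocytes at rest, was the most abundant of the family and changed by much less. It had 412, 446 and 389 CPM in ICI libraries and 532, 594 and 512 CPM in isotype libraries, from 9262 counts or more in each. The groups did not overlap, and its mean was above that of 98.0% of the genes tested. Slfn2 averaged 416 ± 28.5 CPM in ICI and 546 ± 42.8 CPM in isotype libraries (SD, n = 3 each), 1.31-fold lower in ICI (log2 fold change -0.39, SE 0.093, edgeR adjusted p = 0.00378). The call of Slfn2 rested on the scaling, since upper-quartile factors (adjusted p = 0.0623) and library totals alone (adjusted p = 0.0695) both ended it.

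Slfn3, an intermediate member known from work on rodent gut epithelium, was the least abundant. It had 56, 79 and 41 counts in ICI libraries and 106, 105 and 103 counts in isotype libraries, or 2.34, 3.13 and 1.72 CPM in ICI and 3.89, 4.62 and 3.52 CPM in isotype libraries. The groups did not overlap, by a narrow margin. Slfn3 was 1.66-fold lower in ICI (log2 fold change -0.73, SE 0.24, edgeR adjusted p = 0.0215). Its call was lost in 8 of 19 other settings, among them without ICI replicate 1 (adjusted p = 0.0589), ICI replicate 3 (0.0772) or isotype replicate 2 (0.0682).

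Slfn4, an intermediate member known from myeloid cells, where its forced expression disturbs their maturation, spread widely among isotype libraries. It had 55.3, 65.5 and 51.8 CPM in ICI libraries and 92.4, 130 and 59.2 CPM in isotype libraries. The groups overlapped because isotype replicate 3 fell below ICI replicate 2. Slfn4 had a log2 fold change of -0.70 (SE 0.29) and was not called (edgeR adjusted p = 0.0712). Without isotype replicate 3 its log2 fold change was -0.97 (adjusted p = 0.00109), and without isotype replicate 2 it was -0.40 (adjusted p = 0.110). On all 6 libraries it was called by DESeq2 (adjusted p = 0.00348) and limma-voom (0.0421).

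Slfn5, a long member whose human counterpart acts in the nucleus on transcription of interferon-induced genes, was alike in the 3 ICI libraries and spread in the isotype libraries. It had 100, 98.7 and 99.0 CPM in ICI and 73.5, 115 and 55.1 CPM in isotype libraries. The ICI values thus lay inside the isotype range. Slfn5 was not called (log2 fold change 0.29, SE 0.26, edgeR adjusted p = 0.349). Without isotype replicate 2 the log2 fold change was 0.62 (adjusted p = 0.00240), and without isotype replicate 3 it was 0.054 (adjusted p = 0.801). Because strand was not kept in these libraries, reads of Slfn5 and of its antisense gene Slfn5os cannot be told apart where they overlap. Slfn5os had 17 to 65 counts in ICI and 34 to 45 counts in isotype libraries, few beside the 2355 to 2487 and 1614 to 2616 counts of Slfn5.

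Slfn8, a long member of the group related to the transfer RNA endonuclease described for rat Slfn13, was the one member called as higher in ICI. It had 117, 162 and 113 CPM in ICI libraries and 96.7, 110 and 97.4 CPM in isotype libraries. The groups did not overlap, but the lowest ICI library and the highest isotype library lay close together. Slfn8 averaged 130 ± 27.2 CPM in ICI and 101 ± 7.61 CPM in isotype libraries (SD, n = 3 each), 1.29-fold higher in ICI (log2 fold change 0.36, SE 0.14, edgeR adjusted p = 0.0403). Without ICI replicate 2 the log2 fold change was 0.18 and was not called (adjusted p = 0.119), and the call was also lost without isotype replicate 1 (0.143) or isotype replicate 3 (0.130).

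Slfn9, the near copy of Slfn8, went the other way in its values. It had 32.4, 55.3 and 28.1 CPM in ICI libraries and 52.9, 65.1 and 60.2 CPM in isotype libraries. ICI replicate 2 lay inside the isotype range, and the other 2 ICI libraries lay below it. Its log2 fold change was -0.62 (SE 0.26) and was not called (edgeR adjusted p = 0.0682). Without ICI replicate 2 it was -0.97 (adjusted p = 0.000143), and on all 6 libraries it was called by DESeq2 (adjusted p = 0.00773) and limma-voom (0.0194). Summed to 1 row, Slfn8 and Slfn9 had a log2 fold change of 0.080 (adjusted p = 0.676). How the counting divided the reads that the pair shares was not tested.

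By class, the short members together had 442, 493 and 410 CPM in ICI and 684, 764 and 648 CPM in isotype libraries, with both members lower. The intermediate members together had 57.6, 68.7 and 53.5 CPM in ICI and 96.3, 134 and 62.8 CPM in isotype libraries, and these groups overlapped. The long members together had 249, 316 and 240 CPM in ICI and 223, 291 and 213 CPM in isotype libraries, and these overlapped as well. ICI replicate 2 was the highest ICI library in each of the 3 classes. Isotype replicate 2 was likewise the highest isotype library in each class.

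Levels can be compared between members only per length, and here Slfn2 stood far above the rest in every library. Per kilobase of transcript it averaged 250 ± 17.1 CPM in ICI and 328 ± 25.7 CPM in isotype libraries (SD, n = 3 each). Behind it in ICI libraries came Slfn8 (32.5 ± 6.78 CPM per kilobase), Slfn1 (17.4 ± 7.05), Slfn5 (16.6 ± 0.127), Slfn4 (14.5 ± 1.80), Slfn9 (6.69 ± 2.54) and Slfn3 (1.22 ± 0.360). The ranges of Slfn1, Slfn5 and Slfn4 overlapped, so their order in ICI is within the spread. In isotype libraries Slfn1 came second (82.0 ± 9.19 CPM per kilobase), before Slfn8 (25.3 ± 1.90), Slfn4 (23.7 ± 8.89), Slfn5 (13.6 ± 5.15), Slfn9 (10.3 ± 1.07) and Slfn3 (2.04 ± 0.286). There the ranges overlapped between Slfn8 and Slfn4, between Slfn4 and Slfn5 and between Slfn5 and Slfn9.

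**Figure D2:**
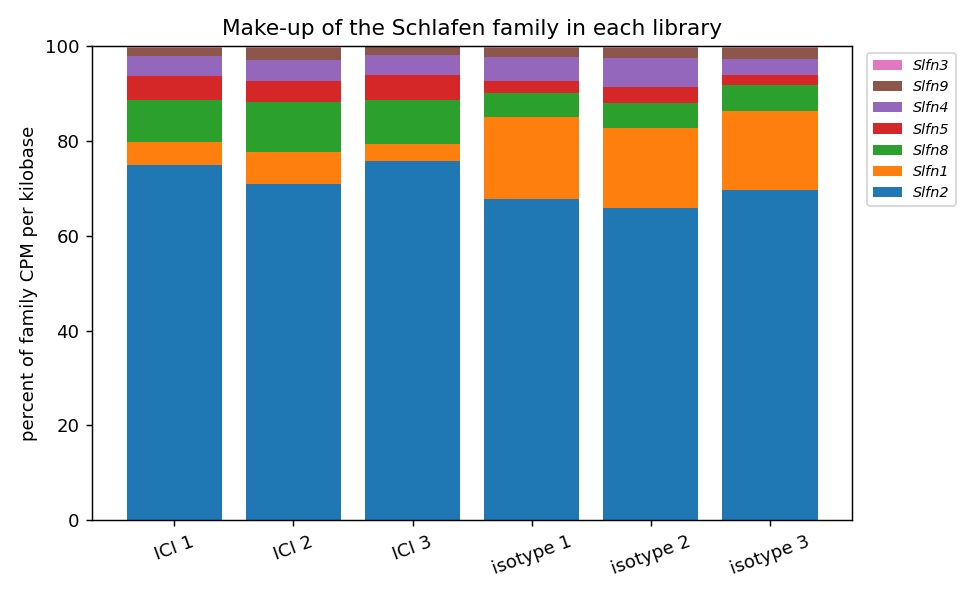
Make-up of the Schlafen family in each library, as the percent of the summed CPM per kilobase of the 7 members (bars stack to 100). Slfn1 takes 3.61 to 6.63% in the 3 ICI libraries, on the left, and 16.6 to 17.2% in the 3 isotype libraries, on the right, while Slfn8 takes 8.81 to 10.7% in ICI and 5.07 to 5.50% in isotype libraries.

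The make-up of the family within each library does not depend on how libraries are scaled, and Slfn1 differed most there. Slfn1 made up 5.02 ± 1.52% of the family per kilobase in ICI and 16.9 ± 0.341% in isotype libraries. Slfn8 made up 9.54 ± 1.00% in ICI and 5.23 ± 0.240% in isotype libraries, and Slfn5 4.94 ± 0.510% in ICI and 2.75 ± 0.745% in isotype libraries. Slfn2 made up 73.9 ± 2.59% in ICI and 67.8 ± 1.88% in isotype libraries (SD, n = 3 each throughout). For these 4 members the groups did not overlap, which gives an exact two-sided permutation p of 0.1, the smallest that 3 against 3 libraries allow, and 0.175 after Benjamini-Hochberg adjustment over the 7 members. For Slfn3 (p = 0.3), Slfn4 (p = 0.7) and Slfn9 (p = 0.6) the exact permutation test gave larger values. Shares add up to the whole family in each library, so a lower share of Slfn1 forces higher shares elsewhere. The differences in share are thus not separate results, and Slfn2 had a higher share per kilobase in ICI although its level was lower. Without division by length, Slfn2 made up 53.7 ± 2.51% of the counts in ICI and 52.8 ± 2.74% in isotype libraries (exact permutation p = 0.7), so the higher share of Slfn2 in ICI held per kilobase only. By counts, Slfn3 made up 0.305 ± 0.0566% in ICI and 0.386 ± 0.00413% in isotype libraries. These groups did not overlap (exact permutation p = 0.1, 0.175 adjusted).

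Ratios within a pair, chosen after the values were seen, remove the library scaling from single members. The ratio of Slfn1 to Slfn2 per kilobase was 0.0644, 0.0933 and 0.0476 in ICI and 0.254, 0.256 and 0.238 in isotype libraries, 3.78-fold lower in ICI. The ratio of Slfn8 to Slfn9 was 5.19, 4.21 and 5.78 in ICI and 2.63, 2.43 and 2.33 in isotype libraries, 2.04-fold higher in ICI. Neither ratio overlapped between the groups (exact permutation p = 0.1 each, 0.15 adjusted over 3 ratios). The ratio of Slfn4 to Slfn3 was 11.8, 10.4 and 14.9 in ICI and 11.8, 13.9 and 8.36 in isotype libraries, and it overlapped (exact permutation p = 0.7).

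**Figure D3:**
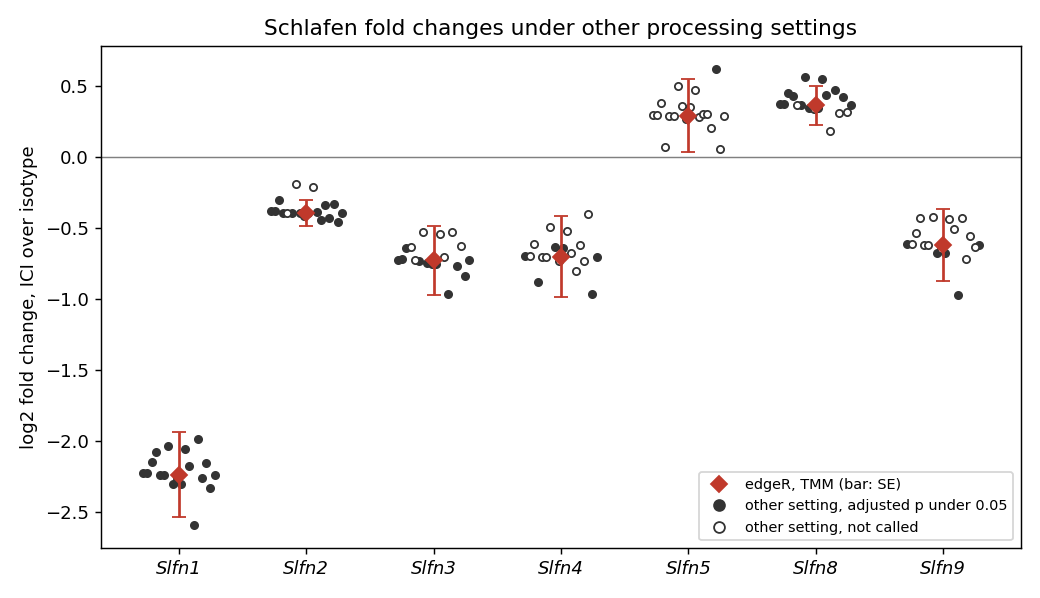
Log2 fold change of each member (ICI over isotype) under edgeR with TMM factors (red diamond, bar 1 SE) and under 18 other settings (circles, filled where the adjusted p was under 0.05). Slfn1 is filled throughout, at -2.59 to -1.99, and the other members have open circles among theirs.

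Family genes outside the 7 had few counts. The pseudogene Slfn10-ps had 36 counts in isotype replicate 2 and none in the other 5 libraries, where a count of 0 allows up to 3 counts (0.102 to 0.126 CPM); such limits cover counting error only. Slfn14, a long member known from platelets and red cell precursors, had 0, 1 and 4 counts in ICI and 1, 0 and 0 in isotype libraries. Slfnl1, a Schlafen-like gene, had 0, 1 and 4 counts in ICI and none in isotype libraries. None of these 3 was tested, and Slfn5os was not called (edgeR adjusted p = 0.794).

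Of 12 genes of interferon signalling, 3 rose and 6 fell, beside 35% of all genes called higher and 33.9% called lower. Their median log2 fold change was -0.29. The receptor chains for interferon gamma differed in direction. Ifngr1 averaged 485 ± 40.1 CPM in ICI and 277 ± 31.6 CPM in isotype libraries (edgeR adjusted p = 8.74e-05). Ifngr2 averaged 104 ± 4.46 CPM in ICI and 166 ± 5.32 CPM in isotype libraries (edgeR adjusted p = 3.64e-05). Irf9, the DNA-binding part of the complex that recognises the interferon-stimulated response element, rose to 167 ± 8.71 CPM in ICI, against 92.3 ± 1.13 CPM in isotype libraries, and the kinase Tyk2 fell to 117 ± 11.3 CPM in ICI, against 198 ± 8.13 CPM in isotype libraries (SD, n = 3 each; edgeR adjusted p = 7.54e-06 for Irf9 and 4.67e-05 for Tyk2). Of 8 interferon ligands only Ifng was tested, and it was 2.36-fold higher in ICI (1.37 ± 0.122 CPM in ICI, 0.573 ± 0.195 CPM in isotype, edgeR adjusted p = 0.00632).

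Of 30 genes of the type I interferon response, 6 rose, 13 fell and 11 missed the threshold, and the median log2 fold change was -0.49. The RNA sensors Oas2 (184 ± 7.24 CPM in ICI, 47.1 ± 7.37 CPM in isotype) and Ddx60 (84.6 ± 13.4 CPM in ICI, 23.6 ± 0.249 CPM in isotype) were higher. The regulator Dhx58 (63.0 ± 13.4 CPM in ICI, 188 ± 16.7 CPM in isotype) and Oasl1 (28.3 ± 7.74 CPM in ICI, 124 ± 15.9 CPM in isotype) were lower. The edgeR adjusted p of these 4 ran from 5.07e-07 for Oas2 to 4.43e-05 for Oasl1. The 13 that fell stand beside 33.9% of all genes called lower, and the 6 that rose beside 35% called higher. The list's summed level was 2452, 3169 and 1978 CPM in ICI and 3556, 3947 and 3264 CPM in isotype libraries, with replicate 2 the highest of each group.

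Of 20 genes of the interferon gamma response, none rose and 18 fell, beside 35% of all genes called higher and 33.9% called lower. Their median log2 fold change was -1.86. The immunoproteasome subunit Psmb8 averaged 309 ± 89.6 CPM in ICI and 1281 ± 103 CPM in isotype libraries (4.15-fold lower in ICI). The proteasome activator Psme1 averaged 141 ± 36.6 CPM in ICI and 407 ± 16.6 CPM in isotype libraries (2.88-fold lower). The transcription factor Irf8 averaged 339 ± 44.9 CPM in ICI and 741 ± 37.2 CPM in isotype libraries (2.19-fold lower), and Ido1, an enzyme that degrades tryptophan, had 0, 3 and 2 counts in ICI and 70, 60 and 67 counts in isotype libraries. The edgeR adjusted p of these 4 ran from 3.28e-06 for Ido1 to 9.26e-05 for Psme1. The summed level of this list was 3463, 5561 and 2468 CPM in ICI and 13696, 14806 and 11284 CPM in isotype libraries. ICI replicate 2, the ICI library with the highest level of every member but Slfn5, was also the highest ICI library here. Whether this response has a part in the Schlafen differences was not tested.

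**Figure D4:**
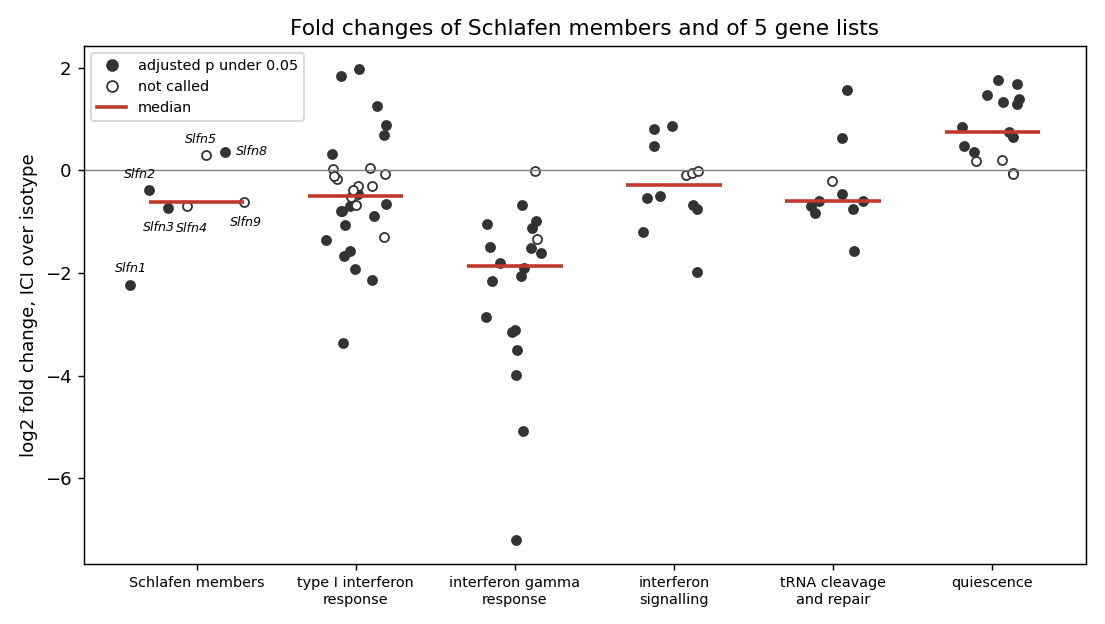
Log2 fold changes (ICI over isotype) of the 7 Schlafen members and of the tested genes of 5 lists, 1 circle per gene, filled where the edgeR adjusted p was under 0.05, with red bars for medians. Medians are -0.62 for the Schlafen members, -0.49 for the type I interferon response, -1.86 for the interferon gamma response, -0.29 for interferon signalling, -0.60 for transfer RNA cleavage and repair, and 0.74 for quiescence.

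Genes tied to the known functions of Slfn2 were read from lists of transfer RNA cleavage and of cell quiescence. Of 10 genes of transfer RNA cleavage and repair, 2 rose and 7 fell, beside 35% of all genes called higher and 33.9% called lower. Rnh1, the inhibitor of angiogenin and related ribonucleases, fell to 170 ± 6.52 CPM in ICI, against 509 ± 46.6 CPM in isotype libraries, and Rnase4, a ribonuclease whose gene shares its start sites with that of angiogenin, rose to 330 ± 25.2 CPM in ICI, against 111 ± 20.9 CPM in isotype libraries. Rtcb, the ligase of transfer RNA splicing, and the lysosomal ribonuclease Rnaset2b had log2 fold changes of -0.69 and -0.76. The edgeR adjusted p of these 4 ran from 5.45e-07 for Rnh1 to 3.90e-05 for Rnaset2b. Ang, which encodes angiogenin and was not among the 4 with the smallest p, was the other gene that rose. It averaged 18.2 ± 2.09 CPM in ICI and 11.7 ± 1.78 CPM in isotype libraries (edgeR adjusted p = 0.00287). Of 15 quiescence genes, 11 rose, none fell and 4 were not called, beside 35% of all genes called higher and 33.9% called lower. Klf2 (794 ± 85.4 CPM in ICI, 248 ± 36.9 CPM in isotype) and Klf4 (246 ± 19.3 CPM in ICI, 89.0 ± 8.60 CPM in isotype), transcription factors of resting cells, were higher. The antiproliferative genes Btg2 (1058 ± 128 CPM in ICI, 430 ± 21.1 CPM in isotype) and Tob1 (126 ± 16.7 CPM in ICI, 48.2 ± 1.64 CPM in isotype) were higher as well, while Slfn1 and Slfn2 were lower. The edgeR adjusted p of these 4 quiescence genes ran from 1.27e-06 for Klf4 to 3.49e-06 for Btg2.

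Markers of cell types differed between the groups alongside the Schlafen genes. Their counts stand beside 35% of all genes called higher and 33.9% called lower. Of 10 monocyte markers 7 fell and none rose, with summed levels of 1518 to 1660 CPM in ICI and 8298, 10884 and 5163 CPM in isotype replicates 1, 2 and 3. The isotype libraries had the same order in Slfn1, Slfn2, Slfn3, Slfn4 and Slfn5, with replicate 2 highest and replicate 3 lowest. The summed levels of the interferon signalling, type I and interferon gamma lists had this isotype order too. So did the sums of neutrophil markers (602, 604 and 479 CPM in isotype replicates 1, 2 and 3), natural killer cell markers and erythroid markers. Over 3 libraries few orders are possible, and this one is not particular to monocyte or interferon genes. In ICI replicates 1, 2 and 3 the monocyte sums were 1653, 1660 and 1518 CPM, beside 29.7, 46.6 and 20.8 CPM of Slfn1. All 10 resident macrophage markers rose, with summed levels of 8769 to 10318 CPM in ICI and 275 to 354 CPM in isotype libraries. All 6 B cell markers rose (197 to 647 CPM summed in ICI, 4.40 to 9.57 CPM in isotype), and of 8 natural killer cell markers 7 rose and Klrk1 fell, with summed levels of all 8 of 102 to 141 CPM in ICI and 232 to 234 CPM in isotype libraries. Of 12 T cell markers 7 were tested and 6 rose (64.6 ± 22.1 CPM summed in ICI, 8.65 ± 1.13 CPM in isotype), with Cd3d at 1 to 8 counts in ICI and 2 or 3 counts in isotype libraries. No library reached 1 CPM of Cd3e or Cd8a. The part of these cell types in the Schlafen differences was not tested.

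In the other marker lists both directions occurred for several myeloid types, beside 35% of all genes called higher and 33.9% called lower. Among 7 general leukocyte genes 4 fell and none rose, and among 10 macrophage genes 5 rose and 2 fell. Of 9 patrolling monocyte genes 7 rose and 1 fell, of 12 neutrophil genes 6 rose and 2 fell, and of 8 conventional dendritic cell genes 5 rose and 2 fell. Of plasmacytoid dendritic cell genes 3 of 5 tested rose, and of mast cell and eosinophil genes 4 of 6. Cardiomyocyte genes left little RNA, with summed levels of 33.5 to 43.6 CPM in ICI and 5.51 to 13.3 CPM in isotype libraries (7 of 7 tested rose). Fibroblast genes summed to 185, 57.7 and 57.7 CPM in ICI replicates 1, 2 and 3 and 11.5 to 15.2 CPM in isotype libraries. Endothelial genes (3 of 5 tested rose), fibroblast genes (5 of 6 rose) and erythroid genes (4 of 4 tested rose) were also higher in ICI or not called.

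For each member, the genes of most like pattern were taken as the 3 with the smallest distance between log2 profiles over the 6 libraries, among 8419 named genes that averaged 10 CPM or more. These choices use the same libraries as the fold changes and are given as a description. Nearest to Slfn1 were H2-T22 (distance 0.25 on the log2 scale), Gpr141 and Psme2, and nearest to Slfn2 were Aar2 (0.081), Lars and Ppp2r5d. Nearest to Slfn3 were Herc6 (0.20), Ifi211 and Parp12, and nearest to Slfn4 were Dkc1 (0.33), Bzw2 and Smpdl3b. For Slfn5, whose nearest gene lay farthest of the 7, Gch1 (0.37), Zfp142 and Rai1 came first. Nearest to Slfn8 were Sowahc (0.15), Cgas and Trim30d, and nearest to Slfn9 were H2-Q6 (0.27), Mx1 and Dtx3l. H2-T22, the nearest to Slfn1, averaged 52.2 CPM in ICI and 225 CPM in isotype libraries. Mx1, the next after H2-Q6 for Slfn9, averaged 28.9 CPM in ICI and 41.7 CPM in isotype libraries. Its groups overlapped, and it was not called (edgeR adjusted p = 0.0762).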

How the data were processed

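RNA of CD45-positive, CD90.2-negative heart cells from 6 samples was sequenced as non-directional SMART-seq V4 read pairs, all under 1 batch date. The authors deposited raw counts per Ensembl gene, whole numbers with no normalization. STAR 2.7.10a, Salmon 1.10.1 and the build GRCm39 are named in the submitters' processing notes; the annotation release and the role of each tool are stated in none of the sources used here. Symbols were matched for 52029 identifiers (91.3%) with a table of an older build.

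Counts were tested with edgeR 4.0.16 (R 4.3.3, limma 3.58.1; quasi-likelihood F test, TMM, robust, filterByExpr with a minimum count of 10), with p-values adjusted over all 14575 genes tested and called under 0.05. SE is the log2 fold change divided by the root of F. CPM are on TMM-scaled totals, and levels per kilobase use the transcript with the longest coding sequence. For Slfn3 this transcript has 1966 bases, 1920 of them coding, and for Slfn4 it has 3958 bases, 1806 of them coding. The levels per kilobase of these members, and the ratio between them, depend on that choice. The test was tested on simulated data in which few genes changed, as many up as down. That simulation does not show how the test or its scaling behaves where 68.9% of all genes are called. For shares and ratios, exact two-sided permutation tests (SciPy 1.17.1) were used, whose smallest p is 0.1. Replicates are labelled biological, and they differed beyond sampling noise (chi-square per degree of freedom 13.8 to 37.4 within groups).

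Members, lists and the alternatives (DESeq2 1.42.0, limma-voom, other scalings and filters, a replicate block, leaving out libraries, glmTreat against a 1.5-fold change, summed paralog pairs) were chosen with earlier results of these data known. Named were the 7 members, up to 4 genes of each pathway list with the smallest p, and 3 genes of most like pattern per member, with a prior count of 2 for log2 CPM; other named genes are said to be so. Fits without robust estimation and with the legacy form, and leaving libraries out of the pair ratios, were added after seeing the data.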

Additional observations from a re-analysis of the deposited data

How the results depend on the processing

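Of the 43 named genes that are no members, 772 values under other settings gave 690 with direction and call kept, 53 that lost the call, 26 that gained it and 3 that reversed. The reversed ones were all Slfn5os, with log2 fold changes of -0.026 under limma-voom, -0.43 without ICI replicate 1 and -0.0021 without isotype replicate 1, none called; left-out libraries gave -0.43 to 0.50. All genes called ranged from 9124 to 9938 when libraries were left out in turn, and 5520 passed a test against a 1.5-fold change. Without a filter 11023 were called. Of all calls, 50.8% were higher in ICI, but 61.5% with upper-quartile factors and 62.7% on library totals, where the median over all genes moved to 0.21 and 0.23 (log2). Of the 7 members, 4 were called; the number was 2 with upper-quartile factors, 2 on library totals, 1 against a 1.5-fold change (Slfn1), 2 with paralog pairs summed, 3 without a filter, and 3 to 4 when libraries were left out in turn. It was 6 under DESeq2, limma-voom and a fit without robust estimation, each with Slfn4 and Slfn9 added (adjusted p = 0.0249 and 0.0318 without robust estimation). Slfn9 reversed to 0.080 in the summed pair with Slfn8. The family sum kept its direction throughout but was not called with upper-quartile factors (-0.24), on library totals (-0.22) or against a 1.5-fold change (-0.42), and it ranged from -0.52 to -0.33 when libraries were left out. The share of Slfn4 was -0.509 points (ICI minus isotype) and turned to 0.118 points without isotype replicate 2, with a range of -1.21 to 0.118 over the left-out libraries. The log2 difference of the ratio of Slfn4 to Slfn3 turned to -0.0096 without ICI replicate 3 and -0.070 without isotype replicate 3, from 0.14, with a range of -0.070 to 0.30. The cause of these changes was not tested. The deviations of libraries with the same replicate number correlated at r of 0.03, 0.06 and 0.13, not all over 0.1, and ICI replicate 2 correlated best with isotype replicate 1 (0.090), so the numbers were not taken as pairing. The r of 0.13 is that of replicate 3, which shared the sex-linked pattern in both groups. A fit with the replicate block called 9991 genes, the family sum and 6 members, with Slfn4 (adjusted p = 0.00927) and Slfn9 (0.00987) added. Counts limit Slfn3 most, at 41 to 106 per library.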
